A study of Mus musculus with 2 samples.

Results

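Among natural killer (NK) cells sorted from mouse brain, the barcodes with Klrg1 RNA and without Cd27 RNA are described here against the other NK barcodes of the same libraries. A droplet barcode stands for 1 cell, and a unique molecular identifier (UMI) for 1 captured RNA molecule. The NK gate kept barcodes with at least 300 genes, at most 10% mitochondrial UMIs, a UMI of Ncr1 or Klrb1c, at most 2 summed UMIs of the residency genes Itga1, Cxcr6, Inpp4b, Gzmc and Tnfsf10, and no UMI of Cd3d, Cd3e, Cd3g, C1qa, C1qb or C1qc. Within it, barcodes with at least 1 Klrg1 UMI and 0 Cd27 UMIs were taken as Klrg1+ Cd27- barcodes. They numbered 667 of 1445 gated barcodes in the wildtype library and 666 of 1457 in the 3XTg-AD library, which makes 1333 of the 3404 barcodes in the series. The other 778 and 791 gated barcodes served as the comparison.

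KLRG1 is an inhibitory lectin-like receptor that binds cadherins and appears on NK cells late in maturation. CD27, a receptor of the tumour necrosis factor family, marks earlier stages and is lost as the cells mature. In this sequence NK cells lose progenitor genes such as Tcf7 and Il7r, gain cytotoxic granules and acquire receptors such as CX3CR1 and S1PR5 that guide circulation.

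Both libraries came from NK cells obtained by fluorescence-activated sorting of brain tissue from 8-month-old female mice that received no treatment. The wildtype group is C57BL/6, with 1 library. The 3XTg-AD group, also with 1 library, is a model of Alzheimer's disease that carries human mutant APP and tau transgenes under a Thy1 promoter, which drives them in neurons, and a mutant presenilin 1 knock-in. The sources used here do not state how many mice went into a library or on which background the 3XTg-AD line was kept, so that genotype, strain background and preparation cannot be told apart. With 1 library per group no test was possible, no p-value is given, and each difference describes these libraries. Intervals are exact 95% intervals that cover counting error only, and not the variation between cells, animals or preparations.

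Klrg1+ Cd27- barcodes were deeper than the barcodes they were compared with. Their median was 3096 UMIs in wildtype and 2998 in 3XTg-AD, against 2650.5 and 2600 UMIs in the other NK barcodes. Median genes per barcode were 1408 and 1423.5 against 1279 and 1299, and median mitochondrial shares were 1.27% and 1.13% against 1.55% and 1.25%. Summed over barcodes, the Klrg1+ Cd27- group held 2288036 UMIs in wildtype and 2246818 in 3XTg-AD, against 2203369 and 2181044 in the other NK barcodes. No Klrg1+ Cd27- barcode sequence occurred in both libraries. Scrublet, a doublet caller, marked 5 wildtype and 6 3XTg-AD barcodes of the group, and they were kept.

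The share of the gate that met the rule was close in the 2 libraries and higher in deeper barcodes. It was 46.2% (43.6 to 48.8) in wildtype and 45.7% (43.1 to 48.3) in 3XTg-AD, so that the intervals overlap. In wildtype it went from 29.5% of barcodes under 2000 UMIs to 56.8% of those with at least 4000 UMIs, and in 3XTg-AD from 28.0% to 62.3%. When every barcode was thinned to 1400 UMIs before the rule was applied, the shares were 33.5% (31.0 to 36.1) of 1331 barcodes and 32.7% (30.3 to 35.3) of 1378. A Klrg1-negative barcode is therefore one without a captured Klrg1 molecule, not one shown to lack the RNA.

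Klrg1 UMIs also occurred in barcodes with T cell or microglia RNA. Among barcodes with at least 2 Cd3 UMIs, which mark T cells, 18.4% of 38 in wildtype and 15.9% of 44 in 3XTg-AD held a Klrg1 UMI, at median depths of 3293 and 4229.5 UMIs. Some T cells express Klrg1 themselves. Among microglia barcodes, with at least 2 C1q UMIs, the shares were 33.3% of 9 and 20% of 30, at medians of 3864 and 3583 UMIs. Neither set was required to lack Ncr1 and Klrb1c. In 3XTg-AD only 28 barcodes past the quality filters lacked both, so that some barcodes of each set also held an NK gene. In the whole NK gate the shares with a Klrg1 UMI were 48.0% and 48.2%, at medians of 2864 and 2777 UMIs. After thinning, the NK gate stood at 33.9% and 33.2%, T barcodes at 13.9% and 6.82%, and microglia barcodes at 16.7% and 11.1%. The barcodes set aside for residency genes, closer relatives of NK cells, were at 12.2% of 90 and 7.46% of 67 without thinning, at medians of 5281 and 5514 UMIs, and at 2.30% and 4.48% after it. How far free RNA adds to the lowest Klrg1 counts in the gate was not tested.

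Many barcodes of the group lay at the threshold, though not most. In wildtype 245 of the 667 barcodes (36.7%) held exactly 1 Klrg1 UMI, and in 3XTg-AD 295 of the 666 (44.3%) did. The median was 2 Klrg1 UMIs in both libraries, and the highest counts were 14 and 13. Just outside the threshold lay 635 wildtype and 664 3XTg-AD barcodes with neither gene. The Cd27 condition took out fewer, namely 26 and 37 barcodes with both Klrg1 and Cd27 UMIs, so that the group is set almost wholly by Klrg1.

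Of the markers that go with the label, Cma1, Cx3cr1 and Ly6c2 were at least 1.5-fold higher in Klrg1+ Cd27- barcodes in both libraries, and Zeb2 was not. The 1.5-fold limit is a limit of size and not a test. It was passed upward by 2.79% of 7120 genes with at least 100 UMIs in wildtype, by 2.42% in 3XTg-AD and by 0.857% (61 genes) in both. Downward it was passed by 4.72% in wildtype, 4.72% in 3XTg-AD and 1.21% (86 genes) in both. The barcodes were chosen on Klrg1 in these same cells, so that all values against the other NK barcodes are descriptions.

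Cx3cr1 encodes the receptor for fractalkine, a chemokine that neurons and endothelium display, and lies at chromosome 9, 119901616 to 120069879 (mm10). In CPM, UMIs of a gene scaled to 1000000 UMIs of the summed barcodes, it stood at 183 in Klrg1+ Cd27- and 39.0 in other NK barcodes of wildtype, and at 116 and 32.6 in 3XTg-AD. These are ratios of 4.68 (3.70 to 5.97) and 3.57 (2.74 to 4.71). Both groups with Klrg1 lay above both groups of other NK barcodes, and the wildtype level was the higher of the pair. At 1400 UMIs a Cx3cr1 UMI was found in 20.1% and 12.3% of Klrg1+ Cd27- barcodes, against 4.53% and 2.85% of the others. Without thinning these shares were 33.9% and 22.7% against 8.35% and 5.06%.

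Cma1 encodes mast cell chymase, a serine protease that mouse NK cells also transcribe (chromosome 14, 55941451 to 55944675). It stood at 620 CPM in Klrg1+ Cd27- against 317 CPM in other NK barcodes of wildtype, and at 670 against 412 CPM in 3XTg-AD. The ratios were 1.96 (1.79 to 2.14) and 1.63 (1.5 to 1.77). Ly6c2, which encodes a Ly6C surface antigen of mature lymphocytes and monocytes (chromosome 15, 75108158 to 75111970), stood at 1378 against 797 CPM and at 1346 against 800 CPM. Its ratios were 1.73 (1.63 to 1.83) and 1.68 (1.59 to 1.79). Ly6c2 has a near-identical neighbour, so that the split of UMIs between the copies is uncertain. Zeb2, a repressor needed for terminal NK maturation (chromosome 2, 44983632 to 45117395), stood at 237 against 176 CPM and 277 against 232 CPM. Its ratios of 1.35 (1.18 to 1.54) and 1.20 (1.06 to 1.35) lay above 1 but under 1.5.

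Detection per barcode gave the same order, with many barcodes of either kind lacking or holding each gene. At 1400 UMIs, Cma1 was found in 51.5% and 54.7% of Klrg1+ Cd27- barcodes against 29.7% and 38.2% of the others, and Ly6c2 in 56.6% and 57.8% against 35.1% and 37.9%. Zeb2 was found in 29.2% and 30.9% against 19.7% and 26.6%. Without thinning, all 4 of Cma1, Cx3cr1, Zeb2 and Ly6c2 were detected in 89 wildtype (13.3%) and 48 3XTg-AD (7.21%) Klrg1+ Cd27- barcodes, and in 1.93% and 1.01% of the others. None of the 4 was detected in 29 (4.35%) and 27 (4.05%) Klrg1+ Cd27- barcodes, against 32.5% and 22.8% of the others.

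The promoters of these markers were looked at for letters that NK regulators are known to bind. The window ran from 250 bases before to 50 bases after each start in RefSeq (GRCm38.p6), and 4 of the 5 markers had one. The RUNX core TGTGGT, or its reverse complement ACCACA, was in 3 of the 4 (Cx3cr1, Cma1 and Ly6c2) and in 16.8% of all 32851 windows of the same length. Upstream stretches of 250 bases are given for Cx3cr1 and Ly6c2, the markers that differed in both libraries and hold the letters before their start, as chr9:120068297-120068546 and chr15:75111972-75112221, both on the minus strand, 5′ to 3′, with the RUNX letters in capitals.
Cx3cr1: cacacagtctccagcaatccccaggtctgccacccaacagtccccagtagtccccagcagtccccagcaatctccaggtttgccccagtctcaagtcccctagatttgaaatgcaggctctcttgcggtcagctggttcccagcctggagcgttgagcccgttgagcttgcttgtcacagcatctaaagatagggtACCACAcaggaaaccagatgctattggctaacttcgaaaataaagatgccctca
Ly6c2: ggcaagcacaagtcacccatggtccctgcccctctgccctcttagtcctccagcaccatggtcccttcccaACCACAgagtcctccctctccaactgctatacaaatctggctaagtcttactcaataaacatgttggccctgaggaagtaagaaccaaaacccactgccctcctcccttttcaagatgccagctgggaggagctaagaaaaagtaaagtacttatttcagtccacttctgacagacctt
The capitals begin at position -54 from the start in Cx3cr1 and at -179 in Ly6c2, and in Cma1 the same letters begin 32 bases past the start. A T-box core, GGTGTGA or TCACACC, was in 0 of the 4 windows and in 3.98% of all, and an E-box, CAGGTG or CACCTG, was in 0 of the 4 and in 20.2% of all. Runx3 itself, a RUNX factor of cytotoxic lymphocytes, stood at 203 against 197 CPM in wildtype and 220 against 233 CPM in 3XTg-AD, with both ratio intervals spanning 1. A match is a run of letters and no evidence of binding, and RUNX letters were also in 1 of the 12 genes with a window among the 15 higher genes whose interval lay farthest from 1, and in 3 of 10 among the 15 such lower genes. In the same sets the T-box letters were in 0 of the 12 and 1 of the 10, and the E-box letters in 1 of the 12 and 5 of the 10.

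As a list, terminal maturation genes were above the median of all genes in both libraries. The median log2 ratio of its 20 measured genes, those with at least 20 UMIs, was 0.60 in wildtype and 0.41 in 3XTg-AD, where all 9786 genes measured so had medians of -0.04 and -0.04. Of the 20, 10 in wildtype and 6 in 3XTg-AD passed 1.5-fold upward and 0 passed it downward, beside 6.43% and 6.24% of all genes higher. The 5 that were higher in both were Cma1, Cx3cr1, Ly6c2, Kcnj8 and Cdc20b, beside 2.2% of all genes. This list, like the others, was chosen with earlier results of these data known. Its standing beside all genes is therefore a description and no independent support for the label. Kcnj8 encodes a potassium channel subunit gated by ATP, and its ratios were 2.09 (1.77 to 2.48) and 1.63 (1.40 to 1.91). S1pr5, a sphingosine phosphate receptor for exit from tissue, was at 1.60 (1.45 to 1.76) and 1.35 (1.24 to 1.48), past the limit in wildtype alone. Itgam, the integrin CD11b used to stage NK maturation by flow cytometry, was at 1.26 (0.959 to 1.65) and 2.05 (1.5 to 2.84). Between the libraries its level was 55.9 and 56.5 CPM in Klrg1+ Cd27- barcodes, but 44.5 and 27.5 CPM in the others.

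The T-box factors ran in opposite directions. Tbx21, which encodes T-bet, a driver of late maturation, stood at 328 against 245 CPM in wildtype and 407 against 339 CPM in 3XTg-AD, ratios of 1.34 (1.20 to 1.5) and 1.20 (1.09 to 1.32). Eomes, the related factor that is prominent earlier, stood at 176 against 260 CPM and 187 against 290 CPM, ratios of 0.677 (0.595 to 0.771) and 0.646 (0.569 to 0.731). Prdm1, which encodes Blimp-1, had intervals spanning 1 in both libraries. The list of 26 transcription factors had medians of -0.07 and -0.09, with Tcf7, Bach2 and Myb at least 1.5-fold lower in both, beside 3.07% of all genes, and 0 higher in both, beside 2.2%.

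**Figure D1:**
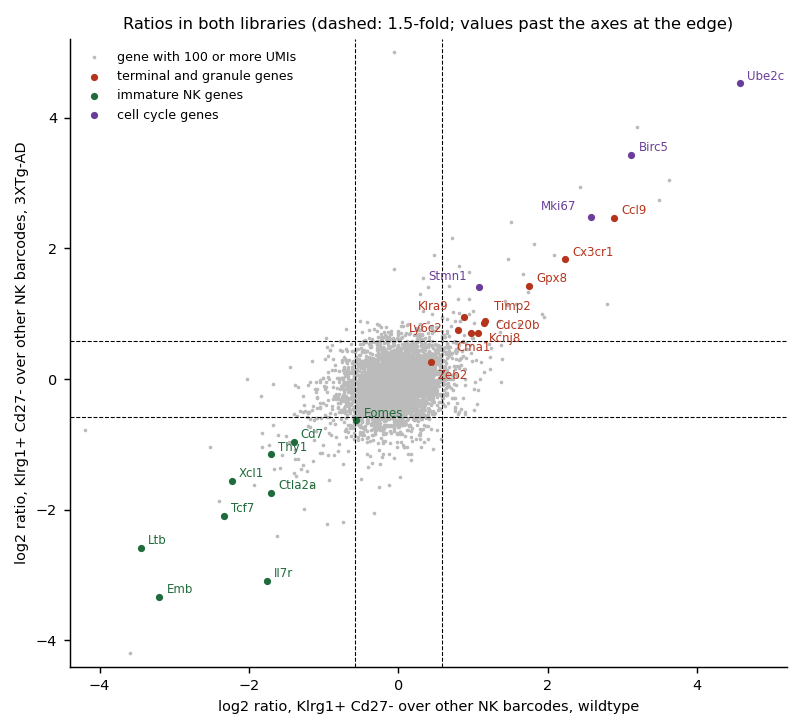
Log2 ratio of Klrg1+ Cd27- over other NK barcodes in wildtype (horizontal axis) against 3XTg-AD (vertical axis), with dashed lines at 1.5-fold. Each of 7120 genes is 1 grey point, and named genes are coloured in groups picked for the figure. In the terminal and granule group, Gpx8, Timp2, Ccl9 and Klra9 are on neither of those gene lists. Eomes, coloured with the immature genes, is not on the immature NK list. Cx3cr1, Gpx8 and Ccl9 lie at the upper right with the cell cycle genes, Ltb, Emb and Il7r at the lower left, and Zeb2 inside the dashed lines.

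A stretch of chromosome 13 held 3 of the genes with higher values, Gpx8, Cdc20b and Gzma. Gpx8, a peroxidase of the endoplasmic reticulum, stood at 85.7 against 25.4 CPM in wildtype and 93.9 against 34.8 CPM in 3XTg-AD. Its ratios of 3.37 (2.49 to 4.62) and 2.70 (2.06 to 3.55) put it among the 15 higher genes whose interval lay farthest from 1. Gpx8 (113042753 to 113046410, minus strand) lies inside Cdc20b (113035111 to 113091195, plus strand), a relative of the mitotic regulator Cdc20. Cdc20b stood at 80.4 against 36.3 CPM and 91.2 against 50.4 CPM, ratios of 2.21 (1.69 to 2.92) and 1.81 (1.43 to 2.30). Gzma, which encodes granzyme A (113093825 to 113100981, minus strand), runs towards Cdc20b and ends 2630 bases beyond the end of that gene. Gzma stood at 24344 against 15800 CPM and 23440 against 16616 CPM, ratios of 1.54 (1.52 to 1.56) and 1.41 (1.39 to 1.43). As these genes overlap or adjoin, whether some Gpx8 and Cdc20b UMIs come from transcripts of a neighbour was not tested.

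Few cytotoxic granule genes passed 1.5-fold. Of 20 measured, 3 in wildtype (Gzma, Gzmb and Prf1) and 1 in 3XTg-AD (Gzmb) were higher, beside 6.43% and 6.24% of all genes, and 0 and 2 (Gzmk and Gzmm) were lower, beside 10.2% and 9.64%. The list's median log2 ratios were 0.26 and 0.11. Prf1, which encodes perforin, the pore-forming protein of the granule, stood at 1649 against 995 CPM in wildtype and 1505 against 1020 CPM in 3XTg-AD, ratios of 1.66 (1.57 to 1.75) and 1.48 (1.40 to 1.56). Gzmb, which encodes granzyme B, stood at 3576 against 2377 CPM and 1967 against 1181 CPM, ratios of 1.5 (1.45 to 1.56) and 1.67 (1.59 to 1.75). With the rule and the values both read at 1400 UMIs, the ratios were lower, at 1.34 and 1.28 for Gzma, 1.26 and 1.43 for Gzmb and 1.44 and 1.30 for Prf1. Serpinb9b, of the family of granzyme B inhibitors, was at 2.01 (1.70 to 2.39) and 1.82 (1.54 to 2.16), and at 1.34 and 1.33 at 1400 UMIs.

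Chemokine genes went in both directions. Ccl5, which encodes RANTES, stood at 33093 against 22333 CPM in wildtype and 36433 against 25900 CPM in 3XTg-AD, ratios of 1.48 (1.47 to 1.5) and 1.41 (1.39 to 1.42). Ccl9 had far fewer UMIs, 46 against 6 in wildtype and 57 against 10 in 3XTg-AD, and ratios of 7.38 (3.15 to 21.2) and 5.53 (2.80 to 12.2). Those UMIs lay in 28 and 39 Klrg1+ Cd27- barcodes, so that Ccl9 was seen in 4.20% and 5.86% of the group. Xcl1, a chemokine that draws dendritic cells, went the other way, at 67.3 against 316 CPM and 122 against 357 CPM, or 4.69-fold and 2.94-fold lower. Ifng had intervals spanning 1 in both libraries, with ratios of 0.888 (0.665 to 1.19) and 0.774 (0.559 to 1.07). Timp2, an inhibitor of matrix proteases, was at 2.23 (1.81 to 2.75) and 1.86 (1.51 to 2.28).

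Genes of immature NK cells were lower as a list. Of 21 measured, 17 in wildtype and 16 in 3XTg-AD were at least 1.5-fold lower, beside 10.2% and 9.64% of all genes, and 16 were lower in both, beside 3.07%. The list's median log2 ratios were -1.40 and -1.15. Ltb, which encodes lymphotoxin beta (chromosome 17, 35194439 to 35196320), had 39 UMIs in Klrg1+ Cd27- and 411 in other NK barcodes of wildtype, and 51 and 297 in 3XTg-AD. It was 10.9-fold and 6.00-fold lower, with ratios of 0.0914 (0.0640 to 0.127) and 0.167 (0.121 to 0.225). Ltb was seen in 4.05% of Klrg1+ Cd27- barcodes in each library, against 21.0% and 14.9% of the others.

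The receptors and factors of early stages followed Ltb. Il7r, the interleukin-7 receptor, had 55 against 180 UMIs in wildtype and 12 against 99 in 3XTg-AD, ratios of 0.294 (0.213 to 0.400) and 0.118 (0.0588 to 0.215). Tcf7, which encodes the progenitor factor TCF-1, had 22 against 107 and 23 against 95 UMIs, ratios of 0.198 (0.119 to 0.315) and 0.235 (0.142 to 0.374). Emb, which encodes the adhesion protein embigin, had 13 against 115 and 9 against 88 UMIs and was 9.19-fold and 10.1-fold lower. All 3 were thus lower in the Klrg1+ Cd27- barcodes of both libraries. Cxcr3, a chemokine receptor of activated lymphocytes, had 6 against 70 UMIs in wildtype and 1 against 50 in 3XTg-AD, ratios of 0.0825 (0.0293 to 0.189) and 0.0194 (0.000482 to 0.113). Ccr2, a receptor for Ccl2, was at 0.416 (0.344 to 0.503) and 0.253 (0.176 to 0.356).

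Surface and protease-related genes of the list were lower in both libraries as well. Cd7, a surface glycoprotein of lymphocytes, stood at 295 against 780 CPM and 414 against 808 CPM, 2.65-fold and 1.95-fold lower. Thy1 stood at 67.3 against 219 CPM and 93.9 against 208 CPM, 3.26-fold and 2.22-fold lower. Ctla2a, a cathepsin inhibitor, stood at 90.5 against 295 CPM and 43.2 against 144 CPM, 3.26-fold and 3.33-fold lower.

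A few lower genes fall outside that list. Ighm, the immunoglobulin mu gene, had 60 against 152 UMIs in wildtype and 58 against 152 in 3XTg-AD, 2.63-fold and 2.70-fold lower. The B cell markers Cd79a and Ms4a1 were at 0 in both groups of both libraries, and Cd79b had 2 to 4 UMIs in each. Ly6e, a Ly6 family member, was 2.43-fold and 2.49-fold lower. Spint2, a protease inhibitor of cell surfaces, was 3.09-fold and 5.28-fold lower, and Vars, which encodes a valine transfer RNA synthetase, was 2.20-fold and 2.40-fold lower. Cdh1, which encodes E-cadherin, a ligand of KLRG1, had 1 UMI in Klrg1+ Cd27- barcodes of each library against 7 and 11 in the others, ratios of 0.138 (0.00305 to 1.07) and 0.0882 (0.00205 to 0.607).

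Depth of the rule moved some of these ratios more than others, as the plot at 1400 UMIs shows. With the rule and the values at 1400 UMIs, Cx3cr1 was at 2.46 in wildtype and 2.94 in 3XTg-AD, and Gpx8 at 2.19 and 2.55. Cma1 was at 1.73 and 1.60, Ly6c2 at 1.51 and 1.52, and Kcnj8 at 2.10 and 1.73. Ltb was at 0.0814 and 0.190 and Ctla2a at 0.332 and 0.345. Cx3cr1, Gpx8, Cma1, Ly6c2 and Kcnj8 thus stayed past 1.5-fold, and Ltb and Ctla2a stayed low, in both libraries. Zeb2 reached 1.64 in wildtype and was at 1.19 in 3XTg-AD. Ccl9 was at 3.22 and 2.85, Emb at 0.298 and 0.191, Tcf7 at 0.316 and 0.277, Xcl1 at 0.131 and 0.222 and Cxcr3 at 0.0684 and 0.325.

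**Figure D2:**
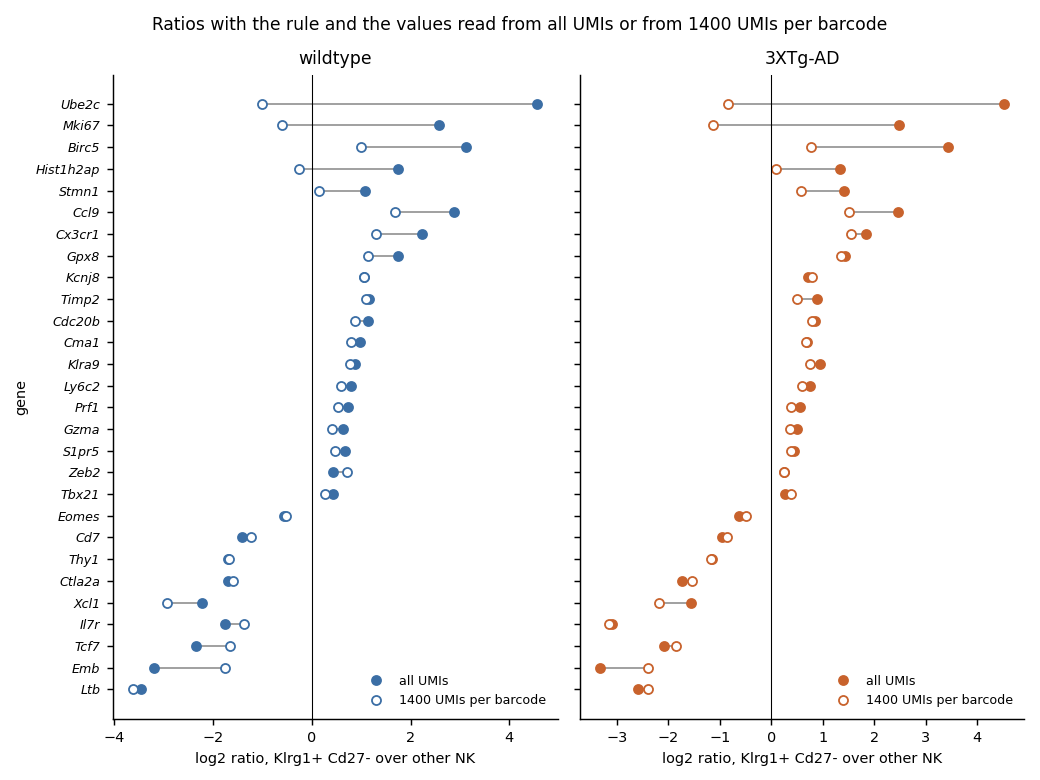
Log2 ratio of Klrg1+ Cd27- over other NK barcodes (horizontal axis) for 28 genes (vertical axis) in each library, with the rule and the values read from all UMIs (filled) or from 1400 UMIs per barcode (open). Terminal and immature genes keep their side of 0, while Ube2c and Mki67 cross it in both libraries.

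NK receptor families showed no common direction. The Ly49 receptors, encoded by Klra genes, bind MHC class I in many cases and are expressed by subsets of NK cells. The 9 measured Klra genes had medians of 0.18 and -0.08, with 0 at least 1.5-fold lower in both libraries, beside 3.07% of all genes. Klra9 alone was at least 1.5-fold higher in both, beside 2.2%. It stood at 395 against 214 CPM in wildtype and 463 against 241 CPM in 3XTg-AD, ratios of 1.84 (1.65 to 2.07) and 1.92 (1.73 to 2.14). Klra7 was at 0.684 (0.618 to 0.757) and 0.772 (0.696 to 0.855), and Klra4 at 0.816 (0.749 to 0.889) and 0.743 (0.687 to 0.802). Klra8 had intervals spanning 1 in both. At 1400 UMIs, no Klra UMI at all was found in 14.5% and 10.2% of Klrg1+ Cd27- barcodes, against 20.9% and 14.0% of the others. The Klra genes are near-identical copies, so that the split of UMIs among them is uncertain.

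Other receptors differed gene by gene. Of the NKG2 family, which pairs with CD94 or signals through adaptors, Klrc1 was at 1.15 (1.05 to 1.26) and 1.20 (1.09 to 1.33), and Klrk1 at 0.845 (0.794 to 0.899) and 0.831 (0.781 to 0.883). None of the 5 genes of that list passed 1.5-fold in both libraries, beside 2.2% of all genes higher and 3.07% lower. Among 13 inhibitory and checkpoint receptors, Entpd1 passed it upward and Tigit downward in both, beside the same shares of all genes. Entpd1, the ectonucleotidase CD39, stood at 49.8 against 30.0 CPM and 121 against 59.1 CPM, ratios of 1.66 (1.22 to 2.29) and 2.04 (1.65 to 2.53). Tigit, a receptor for nectin-like ligands, stood at 52.0 against 87.1 CPM and 23.6 against 57.8 CPM, ratios of 0.597 (0.471 to 0.754) and 0.408 (0.290 to 0.567). Cd160 and Crtam, of 13 activating receptor and adaptor genes, were lower in both, beside 3.07% of all genes. The ratios were 0.523 (0.410 to 0.664) and 0.565 (0.451 to 0.705) for Cd160 and 0.330 (0.156 to 0.651) and 0.274 (0.126 to 0.545) for Crtam.

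Residency genes outside the gate's own had medians below 0, at -1.10 in wildtype and -0.80 in 3XTg-AD. Of 9 measured, 5 in each library were at least 1.5-fold lower, beside 10.2% and 9.64% of all genes, and 4 were lower in both (Ikzf2, Tmem176a, Tmem176b and Ahr), beside 3.07%. Upward, 0 passed in wildtype and 1 in 3XTg-AD, beside 6.43% and 6.24% of all genes. That gene was Zfp683, a factor of resident lymphocytes, with 5 against 0 UMIs. Ikzf2, which encodes Helios, had 17 against 49 UMIs in wildtype and 18 against 45 in 3XTg-AD. Ahr, the aryl hydrocarbon receptor, had 29 against 60 and 32 against 54 UMIs, ratios of 0.465 (0.288 to 0.737) and 0.575 (0.359 to 0.907). As residency genes were used in the gate, some barcodes with such RNA were taken from both sides before the comparison.

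The interferon list had medians below 0 in both libraries. Of 48 type I interferon response genes measured in wildtype, 28 passed 1.5-fold downward and 0 upward, with a median of -0.71, beside 10.2% lower and 6.43% higher of all genes. Of 46 in 3XTg-AD, 10 were lower and 1 higher, with a median of -0.18, beside 9.64% and 6.24%. The difference between the libraries was not tested. Barcodes with at least 10 UMIs of the list were 24.7% of Klrg1+ Cd27- and 20.8% of other NK barcodes in wildtype, and 18.3% and 13.4% in 3XTg-AD. The share was thus higher in the deeper Klrg1+ Cd27- group in both libraries. Ifit1, an antiviral protein that binds RNA, had 59 UMIs in other NK barcodes, of which 42 lay in 10 barcodes, against 5 UMIs in Klrg1+ Cd27- barcodes. In 3XTg-AD it had 5 UMIs in other NK and 2 in Klrg1+ Cd27- barcodes. Isg20, an exonuclease, had 15 against 83 UMIs in wildtype and 10 against 20 in 3XTg-AD. With values thinned to 1400 UMIs per barcode, Isg20 in 3XTg-AD lay above 1, at a log2 ratio of 0.21.

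**Figure D3:**
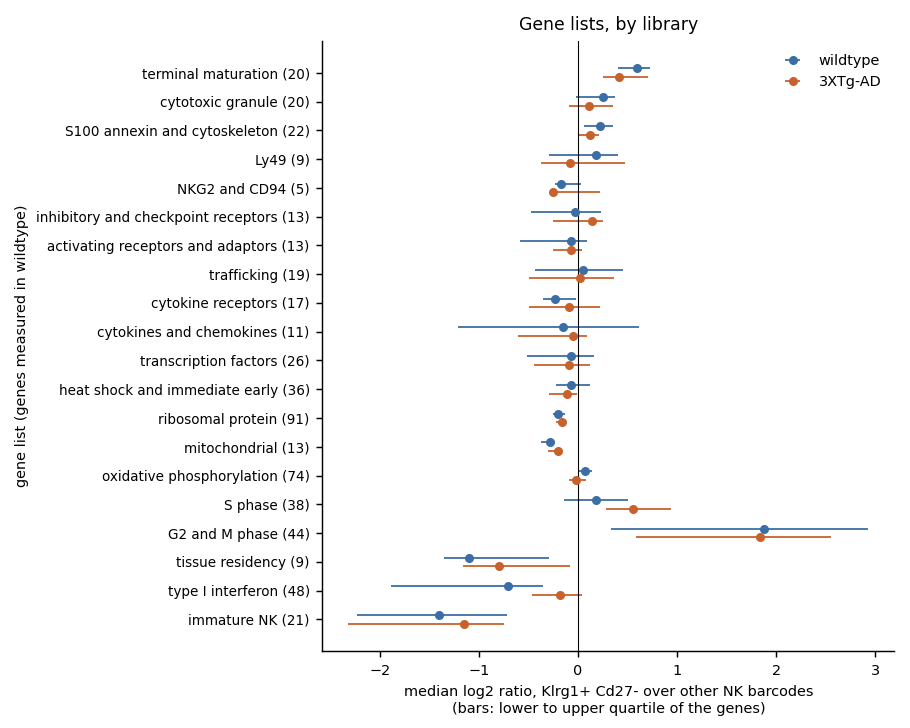
Median log2 ratio of Klrg1+ Cd27- over other NK barcodes (horizontal axis) for 20 gene lists (vertical axis, with the number of genes measured in wildtype), by library, with bars from the lower to the upper quartile of the genes. Terminal maturation and G2 and M phase lie to the right of 0 and immature NK and residency genes to the left in both libraries.

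Genes of G2 and M phase had large ratios, and most UMIs of the dividing-cell genes lay in 8 wildtype and 10 3XTg-AD barcodes. Of 44 measured G2 and M phase genes, 32 and 33 were at least 1.5-fold higher, beside 6.43% and 6.24% of all genes, with medians of 1.88 and 1.84. The S phase list had lower medians, 0.18 and 0.55. Of its 38 genes, 8 were higher and 3 lower in wildtype, beside 6.43% and 10.2% of all genes. In 3XTg-AD 15 were higher and 0 lower, beside 6.24% and 9.64%. Ube2c, a ubiquitin-conjugating enzyme of mitotic exit, had 74 against 3 UMIs in wildtype and 95 against 4 in 3XTg-AD, ratios of 23.8 (7.82 to 118) and 23.1 (8.71 to 86.4). Mki67, which encodes the proliferation marker Ki-67, had 56 against 9 and 75 against 13 UMIs. Barcodes with at least 3 UMIs of 10 dividing-cell genes, a limit chosen after seeing the data, numbered 8 and 10 among Klrg1+ Cd27- and 4 and 3 among other NK barcodes. The former held 95.3% and 97.1% of the group's UMIs of those genes, at medians of 11410.5 and 11400.5 UMIs per barcode.

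The place of dividing barcodes in the group differed with the depth at which the rule was read. Of the 12 wildtype and 13 3XTg-AD dividing NK barcodes, 8 (66.7%) and 10 (76.9%) were Klrg1+ Cd27-, but at 1400 UMIs the rule took 3 and 4 of them. Without dividing barcodes the G2 and M phase medians were -0.01 and 0.03, and with the rule at 1400 UMIs they were -0.27 and 0.01. Mki67 was below 1 under both, at 0.746 and 0.509 without dividing barcodes and 0.661 and 0.457 at 1400 UMIs. Without dividing barcodes the count of genes at least 1.5-fold higher in both libraries was 36 in place of 61. Terminal markers hardly moved, with Cx3cr1 at 4.55 and 3.40 and Cma1 at 1.92 and 1.64.

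General programmes had list medians within 1.5-fold. For ribosomal protein and mitochondrial genes even the upper quartiles of the log2 ratios lay below 0 in both libraries. The 91 ribosomal protein genes had medians of -0.20 and -0.17 with 0 past 1.5-fold in both, beside 2.2% of all genes higher and 3.07% lower. The 13 mitochondrial genes had medians of -0.28 and -0.20. The 74 oxidative phosphorylation genes had 0.07 and -0.02. S100a6, a calcium-binding protein that rises with NK maturation, was at 1.73 (1.65 to 1.82) in wildtype and 1.39 (1.31 to 1.48) in 3XTg-AD. Lgals1, which encodes galectin-1, was at 1.62 (1.57 to 1.68) and 1.30 (1.26 to 1.34). Klf2, a factor of quiescent circulating lymphocytes, was at 1.30 (1.23 to 1.38) and 1.04 (0.982 to 1.10).

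Several lists of markers of other cell types were counted in the group. Of 9 T cell markers, 2 (Trac and Trbc2) were detected, with 252 wildtype and 221 3XTg-AD UMIs and with Cd3d, Cd3e, Cd3g, Cd8a, Cd8b1, Cd4 and Cd5 at 0, Cd3 genes by the gate. The other NK barcodes had 248 and 276 UMIs of that list. Monocyte markers had 171 and 182 UMIs against 388 and 182, with Adgre1 and Fcgr1 at 0 in the group in both libraries. Of these UMIs Ccr2, an immature NK gene as well, gave 160 and 43 against 370 and 165. The group's 182 monocyte marker UMIs in 3XTg-AD were 85 without the barcode that held the most. Mast cell markers, counted because Cma1 is also a mast cell gene, had 5 and 7 UMIs against 26 and 29, with Mcpt4, Tpsb2 and Fcer1a at 0 in both groups of both libraries. Kit, also an immature NK gene, gave 4 and 6 of these UMIs against 25 and 29. Erythroid markers had 36 and 1 UMIs against 5878 and 0, the wildtype ones mostly in 2 barcodes that drew 51.7% and 56.9% of their UMIs from that list.

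A single 3XTg-AD barcode of the group carried neutrophil RNA. It held 21855 UMIs, 31.5% of them from the neutrophil list, with 5 Klrg1 UMIs, 10 Ncr1 UMIs and 58 UMIs of the dividing-cell genes, and it is also among the 10 dividing barcodes. That list had 6897 UMIs in Klrg1+ Cd27- barcodes of 3XTg-AD with it and 10 without it, and 0 in wildtype. S100a8 and S100a9, neutrophil calcium-binding proteins, therefore had 2886 and 2819 UMIs in 3XTg-AD, against 0 in wildtype.

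Within Cd27-negative NK barcodes, the levels of some genes went up with each step in the number of Klrg1 UMIs and those of others did not. Cx3cr1 in wildtype stood at 44.1 CPM with 0 Klrg1 UMIs, 131 with 1, 186 with 2 to 3 and 231 with at least 4, and in 3XTg-AD at 33.3, 70.1, 131 and 166 CPM. Gpx8 went from 30.0 through 58.9 and 81.6 to 118 CPM, and from 36.7 through 60.9 and 102 to 132 CPM. Both were higher at every step in both libraries. Cma1 differed most between 0 and 1 Klrg1 UMI, from 334 to 564 and from 445 to 620 CPM, and then stood at 649 and 653 CPM at the highest counts. Ly6c2 went from 881 to 1661 CPM in wildtype, and in 3XTg-AD from 891 to 1442 CPM with 2 to 3 UMIs and 1353 CPM with at least 4. Gzmb in wildtype stood at 2804, 3760, 4369 and 2371 CPM, and in 3XTg-AD at 1247, 1731, 1960 and 2334 CPM. Prf1 went from 1088 through 1665 and 1844 to 1382 CPM, and from 1086 through 1376 and 1630 to 1526 CPM. Wildtype Gzmb with at least 4 Klrg1 UMIs thus lay below its level without Klrg1.

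Eomes and the immature genes Ltb, Ctla2a, Thy1, Xcl1 and Il7r were lower with 1 Klrg1 UMI than with 0, but not all were lower still with more. Ltb stood at 155, 28.7, 11.2 and 12.9 CPM in wildtype and 107, 28.7, 23.7 and 12.2 CPM in 3XTg-AD, so that most of the difference lay between 0 and 1 Klrg1 UMI. Ctla2a went from 261 to 50.2 CPM and from 123 to 19.2 CPM, and Eomes from 257 to 128 CPM and from 267 to 146 CPM. Thy1 stood at 199, 61.7, 48.1 and 97.6 CPM in wildtype and at 170, 92.0, 71.0 and 129 CPM in 3XTg-AD, higher at the last step than at the one before. Xcl1 stood at 262, 97.6, 68.2 and 35.9 CPM in wildtype but at 323, 131, 93.4 and 146 CPM in 3XTg-AD. Il7r in wildtype stood at 67.6, 15.8, 24.6 and 31.6 CPM, with overlapping intervals from 1 Klrg1 UMI on. Barcodes with 1 Klrg1 UMI, just inside the rule, thus lay between the barcodes without Klrg1 and those with more for Cx3cr1, Gpx8, Ctla2a and Eomes. Median depth went up over the same bins, from 2544 to 3815.5 UMIs in wildtype and from 2494 to 3742 in 3XTg-AD. The wildtype bin with at least 4 Klrg1 UMIs also held all 74 Ube2c and 49 of the 56 Mki67 UMIs of the Klrg1+ Cd27- group. In 3XTg-AD the neutrophil-rich barcode, with 5 Klrg1 UMIs, falls in that bin, and 53.6% of the group's Thy1 UMIs lay in 10 barcodes. The part of depth and of such barcodes in these steps, also those of Gzmb and Prf1, was not tested. On the other side of the rule, 23 wildtype and 33 3XTg-AD barcodes held Klrg1 with exactly 1 Cd27 UMI. Their Cx3cr1 level was 75.4 and 65.6 CPM, Cma1 496 and 525 CPM and Ltb 43.1 and 58.3 CPM.

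**Figure D4:**
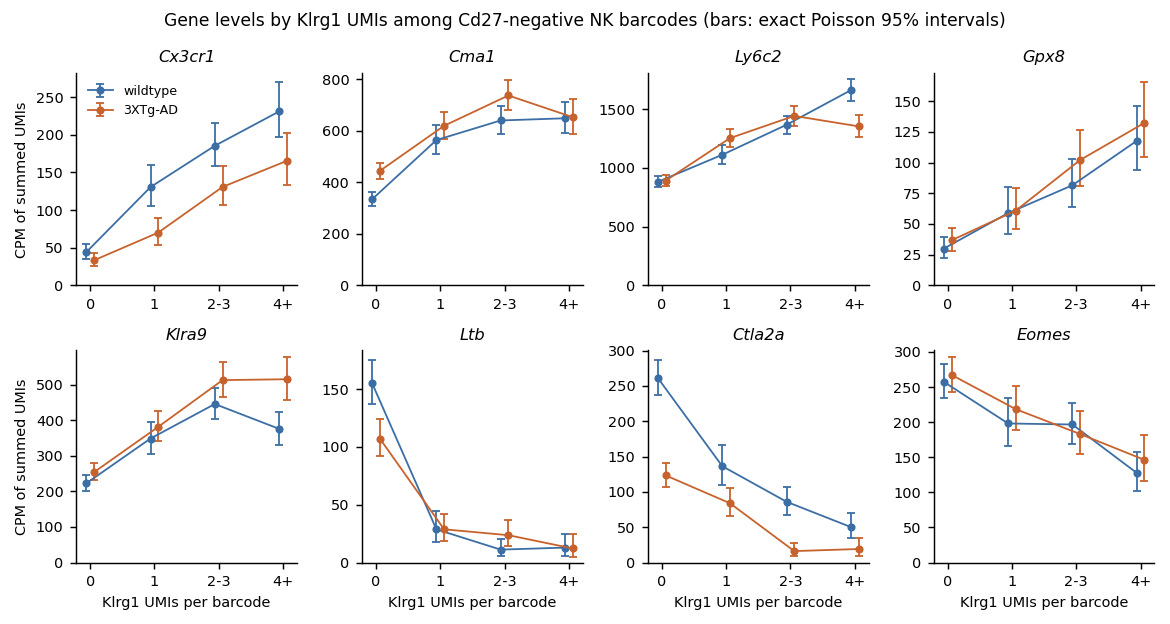
CPM of summed UMIs (vertical axes, from 0) of 8 genes by the number of Klrg1 UMIs per barcode (horizontal axes) among Cd27-negative NK barcodes of each library, with exact Poisson 95% intervals. Cx3cr1 and Gpx8 are higher with every step and Ltb is far lower from 1 Klrg1 UMI on than at 0, in both libraries.

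Genes with higher levels in the group were only partly detected in the same barcodes. Gpx8, added after its values were seen, is not on the terminal maturation list. At 1400 UMIs, Gpx8 was detected in 16.2% (10.3 to 23.6) of wildtype Klrg1+ Cd27- barcodes with a Cx3cr1 UMI and 9.67% (7.26 to 12.6) of those without, and in 25.3% (16.2 to 36.4) and 7.49% (5.45 to 9.99) in 3XTg-AD. Cma1 was detected in 51.5% and 51.5% in wildtype, and in 69.6% (58.2 to 79.5) and 52.6% (48.4 to 56.8) in 3XTg-AD. Ly6c2 was found in 60.0% and 55.7% in wildtype and 51.9% and 58.6% in 3XTg-AD, with overlapping intervals. Zeb2 was found in 37.7% (29.3 to 46.6) and 27.1% (23.3 to 31.1) in wildtype and 30.4% and 31.0% in 3XTg-AD. Wildtype Klrg1+ Cd27- barcodes with and without a Cx3cr1 UMI thus had Cma1 at equal shares. Cx3cr1 was detected in 33.9% and 22.7% of the group without thinning and in 20.1% and 12.3% at 1400 UMIs. Barcodes without a Cx3cr1 UMI here therefore include some that hold the RNA, and no separate subsets follow from these shares.

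Between the libraries, Klrg1+ Cd27- barcodes were compared over all genes and by list. Of 5235 genes with at least 100 UMIs in the group, 212 (4.05%) were past 1.5-fold upward and 122 (2.33%) past it downward in 3XTg-AD. Of the 20 terminal maturation genes, 0 passed 1.5-fold upward and 2 downward (Cx3cr1 and S100a4), with a median log2 ratio of 0.02, beside 8.54% higher and 6.38% lower of 8853 genes with at least 20 UMIs. Cma1 was at 1.08 (1.01 to 1.16), Ly6c2 at 0.977 (0.929 to 1.03), S1pr5 at 1.11 (1.02 to 1.20) and Zeb2 at 1.17 (1.04 to 1.32). Cx3cr1 was lower, at 0.636 (0.543 to 0.744), while in the other NK barcodes it was at 0.834 (0.600 to 1.16). Gzma was at 0.963 (0.951 to 0.974), and Gzmb at 0.550 (0.530 to 0.571), beside 0.497 (0.474 to 0.521) in the others. All of these ratios are 3XTg-AD over wildtype. Gzmb was detected in 89.1% of wildtype and 89.9% of 3XTg-AD Klrg1+ Cd27- barcodes, and in 67.6% and 67.0% of the others. Of its Klrg1+ Cd27- UMIs, 20.3% in wildtype and 12.9% in 3XTg-AD lay in 10 barcodes.

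Genes of the heat shock and immediate early list were mostly above 1 in both groups of barcodes. Of 36 measured in Klrg1+ Cd27- barcodes, 17 were past 1.5-fold upward and 2 downward, with a median of 0.38, beside 8.54% and 6.38% of all genes. Of 34 in the others 18 were higher and 1 lower, with a median of 0.61, beside 8.24% and 5.98%. Hspa1b, an inducible HSP70 gene, went from 21 wildtype to 129 3XTg-AD UMIs in Klrg1+ Cd27- barcodes, a ratio of 6.26 (3.92 to 10.4), beside 3.52 (2.43 to 5.22) in the others. Hspa1b and Hspa1a are near-identical, so that their split is uncertain, and Hspa1a was at 3.36 (2.34 to 4.91), beside 3.44 (2.45 to 4.94). Hsph1, an HSP110 chaperone, was at 2.75 (2.07 to 3.67) and the constitutive chaperone gene Hspa8 at 2.06 (1.97 to 2.15). Of the AP-1 genes, Fos was at 4.25 (2.67 to 7.02) and Jun at 2.49 (1.97 to 3.16), and the phosphatase gene Dusp1 was at 3.00 (2.01 to 4.56). These genes can respond to tissue handling, and the preparation cannot be told apart from the genotype here.

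Receptor genes differed between the libraries in both directions. Klra8 and Klra3 were at 1.82 (1.67 to 1.97) and 1.74 (1.53 to 1.98), beside 1.96 and 2.01 in the other NK barcodes. Klra1 and Klra5 were at 0.296 (0.249 to 0.350) and 0.377 (0.267 to 0.525), beside 0.415 and 0.643. Klra9, higher in the group in both libraries, was at 1.17 (1.07 to 1.28). Klrc3 went from 184 UMIs to 30, 6.02-fold lower, whereas Klrc2 was at 1.51 (1.34 to 1.70). Entpd1 was at 2.42 (1.94 to 3.04) and Tigit at 0.454 (0.322 to 0.632). These 4 genes went the same way in the other NK barcodes. From wildtype to 3XTg-AD, Klrc3 there went from 199 to 45 UMIs, Klrc2 from 533 to 808, Entpd1 from 66 to 129 and Tigit from 192 to 126.

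Several single genes were lower in 3XTg-AD Klrg1+ Cd27- barcodes. Wls, which carries Wnt proteins to the surface, went from 1123 wildtype UMIs to 162 3XTg-AD UMIs, 6.81-fold lower, and 6.92-fold lower in the others. It was detected in 69.4% and 21.6% of Klrg1+ Cd27- barcodes, and in 47.9% (44.0 to 51.8) and 10.8% (8.49 to 13.4) at 1400 UMIs. Lpin1, a phosphatidate phosphatase, was 4.81-fold lower, Dhrs3, a retinal reductase, 2.93-fold lower and Socs1, a brake on cytokine signalling, 2.58-fold lower. Pim2, a survival kinase, was 2.50-fold lower and Serpina3g, a serine protease inhibitor, 2.01-fold lower. Each was also lower in the other NK barcodes, by 3.23-fold, 2.69-fold, 2.06-fold, 2.26-fold and 1.94-fold. Arhgap10 was higher, at 4.14 (2.97 to 5.87) beside 2.88 (2.06 to 4.09).

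Immature and interferon lists had medians below 0 between the libraries in both groups of barcodes. Of 17 measured immature genes, 1 passed 1.5-fold upward (Xcl1) and 5 downward in 3XTg-AD Klrg1+ Cd27- barcodes, with a median of -0.34, beside 8.54% and 6.38% of all genes. In the other NK barcodes 0 of 21 passed upward and 7 downward, with a median of -0.32, beside 8.24% and 5.98%. Il7r was at 0.222 (0.108 to 0.420), beside 0.556 (0.430 to 0.714) in the others, and Ccr2 at 0.274 (0.191 to 0.385), beside 0.451 (0.373 to 0.543). Xcl1 was at 1.81 (1.48 to 2.21), beside 1.13 (1.02 to 1.25). Of 36 interferon genes, 4 were higher and 9 lower, with a median of -0.22, while in the other NK barcodes 2 of 47 were higher and 26 lower, with a median of -0.82. Whether these library differences differ between Klrg1+ Cd27- and other NK barcodes was not tested. Hist1h2ap, a histone gene with near-identical copies, was at 2.92 (2.65 to 3.22), and 76.4% and 73.9% of its Klrg1+ Cd27- UMIs lay in 10 barcodes of each library. In the other NK barcodes it went from 165 wildtype to 631 3XTg-AD UMIs.

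**Figure D5:**
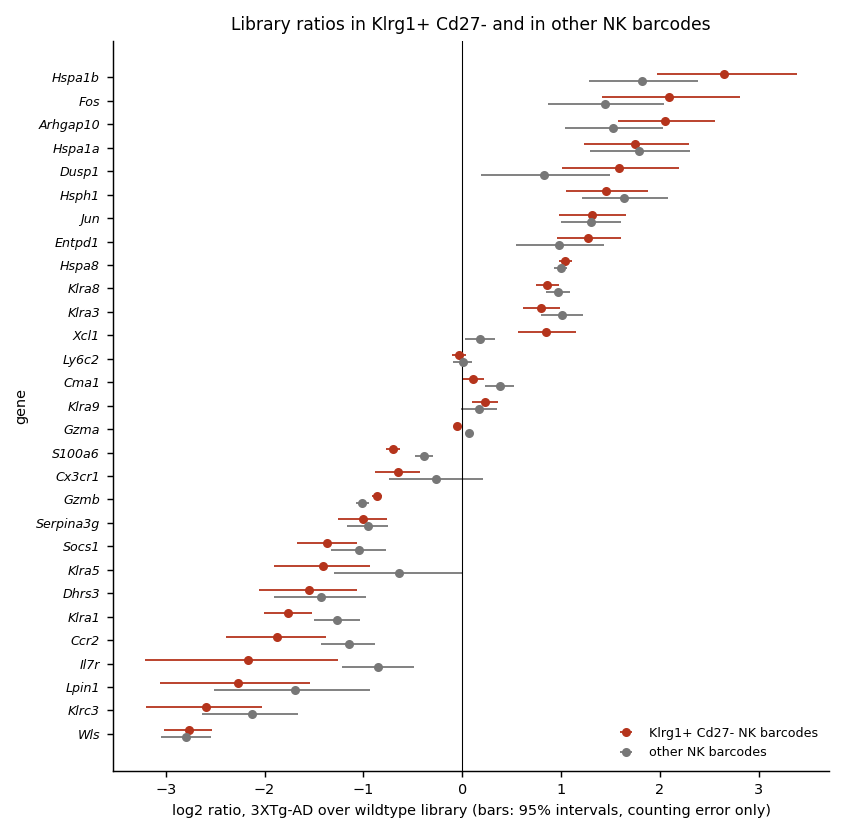
Log2 ratio of 3XTg-AD over wildtype (horizontal axis) for 29 genes (vertical axis) in Klrg1+ Cd27- and in other NK barcodes, with exact 95% intervals that cover counting error only. Heat shock and immediate early genes lie to the right of 0 and Wls, Klrc3 and Lpin1 far to the left in both groups, with Ly6c2, Cma1 and Gzma near 0.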

How the data were processed

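UMI counts per gene and barcode were deposited by the authors as 1 matrix of 31053 genes for each library, with no normalization. Cell Ranger 3.1.0, STAR and mm10 are named per the submitters' processing notes, and version 3.0.2 of the software is written in the matrices, per the file headers. The counts rest on an annotation release not given in the sources used here. The wildtype library held 1709 barcodes and 5559995 UMIs, and the 3XTg-AD library 1695 and 5468455.

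In each library 1 gate was applied in order. The steps removed, in wildtype and 3XTg-AD, 45 and 10 barcodes with too few genes, 2 and 0 with too many mitochondrial UMIs, 43 and 28 without Ncr1 or Klrb1c, 103 and 89 for residency genes, and 71 and 111 for T cell or microglia UMIs. Counts were summed per group and library and scaled to CPM. Ratios have exact conditional binomial, levels exact Poisson and shares exact Clopper-Pearson 95% intervals. The minimum was 100 UMIs over both libraries for a gene and 20 for a list gene. Barcodes were thinned to 1400 UMIs without replacement, which left out shallower ones. The functions were checked on simulated data.

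For each comparison (for the libraries also without barcodes of over 20% erythroid or neutrophil UMIs), the rule named the 15 higher and 15 lower genes whose interval lay farthest from 1, up to 4 genes of each of 31 lists with the largest ratio, and a set of marker genes. Not all are printed, and some genes are not reported here. Left out of it were ribosomal protein, mitochondrial, receptor variable and rule genes. Klra1, Klra3, Klra4, Klra7, Klra8, Klf2, Runx3, Timp2, Serpinb9b and Gpx8 were added after their values were seen, although Gpx8 is also among the 15 higher genes. Barcode group, members and gene lists were chosen with earlier results of these data known. Positions come from GENCODE M21 on mm10, matched by Ensembl identifier for 166 of 166 named genes, and promoters from RefSeq GRCm38.p6. Python 3.11.15, numpy 2.4.6, scipy 1.17.1, pandas 2.3.3, scanpy 1.11.5 (Scrublet) and, for an alternative scaling by TMM, R 4.3.3 with edgeR 4.0.16 were used. Other alternatives changed depth, thresholds, filters, scaling and the comparison group.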

Additional observations from a re-analysis of the deposited data

Results flagged for a closer look

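Gzmk, which encodes granzyme K, moved in opposite directions between the libraries in the 2 groups of NK barcodes. Set as 3XTg-AD over wildtype, the log2 ratio came to -0.87 in Klrg1+ Cd27- barcodes, from 28 to 15 UMIs, and 0.65 in the other NK barcodes, from 18 to 28 UMIs. The ratio intervals, 0.271 to 1.06 and 0.839 to 3.02, both span 1. The difference between the groups was not tested.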

How the results depend on the processing

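No paired analysis was possible because each group had 1 library and no replicate numbers to pair, and for the same reason no replicate could be left out. Over 17 alternative settings and 333 values, 3940 alternative values stayed within their counting interval or, for counts, within 1.5-fold, 461 moved and 26 changed direction. Under TMM, median ratio and ribosome-free totals, 32 of 981 gene and list values moved and 0 changed direction. Genes higher and lower in both libraries (61 and 86) numbered 73 and 71 under TMM and median ratio scaling and 56 and 113 with ribosome-free totals, and those between libraries (212 and 122) 188 and 155, 188 and 154, and 192 and 147. The higher genes' share was 41.5% as reported, then 50.7%, 50.7% and 33.1%, and between libraries 63.5%, then 54.8%, 55.0% and 56.6%. Settings in which both sides had 3 or fewer UMIs gave no value. Leaving out dividing barcodes, and leaving barcodes rich in erythroid or neutrophil RNA out of the share, were chosen after seeing the data.

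The share met by the rule (46.2% and 45.7%) was 33.5% and 32.7% with the rule at 1400 UMIs and 29.2% and 25.5% with at least 2 Klrg1 UMIs. Genes higher in both libraries (61) numbered 37 without barcodes of 10 or more interferon UMIs, 36 without dividing barcodes, 289 against Klrg1-negative Cd27-positive barcodes, 215 with a minimum of 20 UMIs, 538 with none and 21 at 2-fold. Genes lower in both (86) numbered 146 with thinned values, 151 with the rule thinned too, 156 with at least 2 Klrg1 UMIs, 237 against Klrg1-negative Cd27-positive barcodes, 300 with a minimum of 20 UMIs, 699 with none and 31 at 2-fold. Between libraries, higher genes (212) numbered 397 and 497 thinned in these ways, 756 with 20 UMIs, 2226 with none and 35 at 2-fold, and lower genes (122) numbered 261, 376, 565, 1940 and 29. Thinning leaves fewer UMIs per gene, and a lower minimum admits genes with few UMIs.

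These log2 ratios changed sign. With the rule at 1400 UMIs, Mki67 was -0.60 in wildtype and -1.13 in 3XTg-AD, Ube2c -1.01 and -0.84, Hist1h2ap -0.27 in wildtype, the G2 and M phase median -0.27 in wildtype, and in 3XTg-AD Isg20 0.30 (0.21 with thinned values alone), S100a8 -5.53, S100a9 -6.53 and the neutrophil median -5.53 (-1.60 between libraries). Without dividing barcodes, Mki67 was -0.42 and -0.97, the wildtype G2 and M phase median -0.0086 and S100a9 -0.65 in 3XTg-AD. Without barcodes of 10 or more interferon UMIs, wildtype Mki67 was -0.96, Birc5 -1.55, Hist1h2ap -0.45, Stmn1 -0.013 and the G2 and M phase median -0.088, S100a9 was -1.12 in 3XTg-AD and the neutrophil median -0.70 between libraries. Without barcodes of over 20% erythroid or neutrophil UMIs, S100a9 was -0.71 and the neutrophil median -0.029 in 3XTg-AD. Against Klrg1-negative Cd27-positive barcodes, Tmem176b was 1.11 in 3XTg-AD. Beyond the dividing and neutrophil barcodes that the settings take out by construction, the cause was not tested.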
